A study of Mus musculus with 8 samples.

Results

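Nuclear genes of mitochondrial complex I were followed in epididymal fat of mice with and without an adipose Cre transgene that acts on a floxed aromatase gene. All protein-coding genes whose symbol begins with Nduf were taken from the deposited table, which gave 46 of its 34866 genes: 38 named as subunits and 8 named as assembly factors (Ndufaf). Control mice were Aromatase flox/flox, with loxP sites around both copies of Cyp19a1, and knockout mice were aP2-Cre;Aromatase flox/flox, so both groups carry the floxed alleles and differ by the transgene. Each group held 4 libraries from male mice, whose age is not given in the sources used here. Cre in these animals is driven by the promoter of Fabp4, a gene active in adipocytes and also in macrophages. Mice with the transgene but without floxed alleles were not analysed here.

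Complex I is the entry point of the respiratory chain: it oxidises NADH in the mitochondrial matrix, passes the electrons to ubiquinone and pumps protons across the inner membrane. Its matrix arm consists of the N module, where NADH is oxidised, and the Q module, where ubiquinone is reduced, and its membrane arm carries the proton channels. A small core of the complex is conserved from bacteria, part of it encoded in mitochondrial DNA, and it is surrounded by accessory subunits. Assembly factors help to build the complex and are not part of the finished enzyme. White adipocytes hold fewer mitochondria than brown ones but use them in adipogenesis and in the synthesis and breakdown of fat.

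The members lay on 17 chromosomes. Promoter sequence from RefSeq (GRCm38.p6), from 250 bases before to 50 after an annotated start, was on hand for 40 of the 46 genes. Ndufa2, Ndufa4l2, Ndufaf6, Ndufb9 and Ndufs1 were among those with no entry. The stretch before the start of Ndufa8, the member with the lowest ratio of knockout to control, is shown first because it holds a match to the letters of the NRF1 motif, in capitals, 30 bases before the start. NRF1 is a transcription factor known to act on genes of the respiratory chain.
Ndufa8 (chr2:36049339-36049588, minus strand): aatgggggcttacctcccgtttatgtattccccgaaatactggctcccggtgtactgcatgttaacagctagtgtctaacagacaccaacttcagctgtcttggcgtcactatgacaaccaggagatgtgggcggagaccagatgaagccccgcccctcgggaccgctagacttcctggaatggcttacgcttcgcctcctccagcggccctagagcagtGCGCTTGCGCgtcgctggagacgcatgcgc

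Both strands were searched for 5 motifs. The NRF1 letters (GCGC, any 2 bases, then GCGC) occurred in 9 of 33 subunit genes and 2 of 7 assembly factor genes with an entry, and in 9.61% of 17491 protein-coding genes. The letters AAGATGGC (YY1) occurred in 7 of 33 subunit genes, 1 of 7 assembly factor genes and 3.57% of protein-coding genes. For CCGGAAG (ETS) these numbers were 4 of 33, 2 of 7 and 12.9%. For TGACGTCA (CREB) they were 3 of 33, 0 of 7 and 2.54%, and for AAGGTCA (ERR) 3 of 33, 0 of 7 and 4.73%. A gene was counted when any of its annotated windows held the letters, and a match describes sequence, not binding.

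The YY1 matches are printed together, 5′ to 3′ with the motif in capitals, because they share a place. All 8 lay on the strand of their gene and began 10 to 38 bases after the start base. Among the YY1 matches in promoters of other protein-coding genes, 255 of 662, or 38.5%, lay at or after the start base on the strand of the gene. That share covers any place from the start base on, and a match in overlapping windows of a gene counts more than once. The 10 to 38 bases are the range of these same 8 matches, so the 2 are not like for like.
Ndufs4 (chr13:114388045-114388069, minus strand): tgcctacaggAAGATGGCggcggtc
Ndufs6 (chr13:73328433-73328459, minus strand): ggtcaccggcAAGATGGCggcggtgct
Ndufs7 (chr10:80249463-80249490, plus strand): ggccgaggccAAGATGGCggcgctggcg
Ndufa3 (chr7:3617385-3617412, plus strand): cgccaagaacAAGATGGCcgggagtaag
Ndufa9 (chr6:126849098-126849125, minus strand): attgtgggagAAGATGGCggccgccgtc
Ndufb8 (chr19:44555393-44555414, minus strand): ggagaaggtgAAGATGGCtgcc
Ndufc1 (chr3:51408916-51408943, minus strand): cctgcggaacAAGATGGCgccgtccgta
Ndufaf8 (chr11:120098934-120098961, plus strand): ggcagggcccAAGATGGCggcgccctcg
NRF1 matches were spread over a wider stretch, from 191 bases before to 23 bases after a start. Those of 3 further named members are given for comparison. The Ndufv2 line shows the first of 2 matches that overlap each other in a run of alternating G and C.
Ndufab1 (chr7:122101909-122101938, minus strand): gggtccgcccGCGCCCGCGCagccctcaag
Ndufv2 (chr17:66101557-66101586, minus strand): gggctcgtgaGCGCGCGCGCgccgtgcgtc
Ndufaf4 (chr4:24897960-24897989, plus strand): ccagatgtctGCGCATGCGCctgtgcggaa

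**Figure D1:**
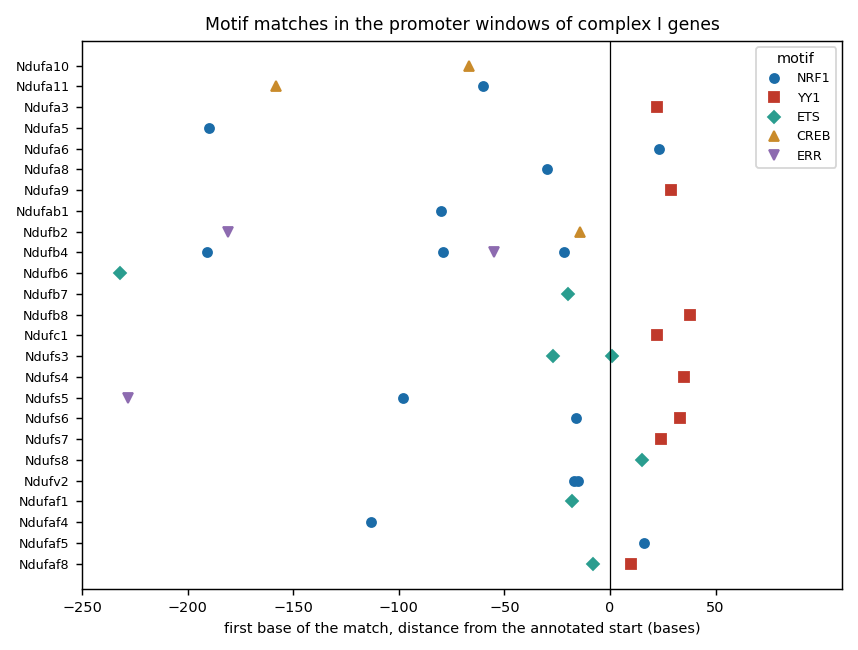
Position of each motif match (x axis, distance of its first base from the annotated start, in bases) in the promoter windows of complex I genes that held a match (y axis). Circles stand for NRF1, squares for YY1, diamonds for ETS, upward triangles for CREB and downward triangles for ERR. The 8 squares lie 10 to 38 bases after the start, and most circles lie before it. For Ndufa5, which has 2 annotated starts, the distance is from the start that lies further downstream.

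Libraries held 1538427 (control replicate 4) to 3053565 estimated counts. Levels are given in CPM, counts relative to library sizes scaled by trimmed mean of M values (TMM). Cyp19a1, the targeted gene, was at 1 to 5.02 estimated counts in the controls and 0 to 4 in the knockout libraries, too few to check the deletion. A count of 0 allows a level of up to 3 counts, or 0.982 to 1.95 CPM by library, which covers counting error only. Of the 12 adipocyte markers all were tested and 10 had a log2 fold change below 0, none past the threshold. The median log2 fold change of these markers was -0.14, as for the subunits below. The lowest was Retn, which encodes the adipocyte hormone resistin, at 2392 ± 320 CPM in controls and 1528 ± 144 CPM in knockouts (SD, n = 4), with no overlap and a log2 fold change of -0.65 (edgeR adjusted p = 0.073). Adipoq, the adiponectin gene, had a log2 fold change of 0.03. Adipocyte markers summed to 45871 to 60895 CPM over the controls and 38435 to 56614 CPM over the knockouts. Macrophage markers did not overlap in sum, at 998 to 1144 CPM in the controls and 1526 to 1917 CPM in the knockouts. All 12 macrophage markers tested of 13 listed had a log2 fold change above 0. Of these 3 passed edgeR's quasi-likelihood test with Benjamini-Hochberg adjustment, against 0.168% of tested genes in either direction. Fcgr1, the marker not tested, went the other way, at 4.79 ± 2.87 CPM in controls and 2.92 ± 0.93 CPM in knockouts (SD, n = 4). Of 5 epididymis markers, Crisp1, Defb21 and Lcn5 were at 0 in all libraries, and Adam7 and Rnase10 together reached at most 8.53 CPM. Skeletal muscle markers, also 5, summed to 11.5 to 25.1 CPM over the controls and 15.5 to 61.3 CPM over the knockouts. Of these only Acta1 was tested, with a log2 fold change of 0.79 (edgeR adjusted p = 0.71). In bulk tissue, fewer cells of a type and less RNA per cell cannot be told apart, and the part of any of these marker lists in the complex I values was not tested. The labels do not say that the 8 libraries come from separate animals, so p-values measure only the spread between these libraries, which may be technical.

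No complex I gene passed an adjusted p of 0.05 in the knockout against control comparison. All 46 were counted deeply enough to be tested, and 0 of 46 passed, where 0.168% of the 12480 tested genes did. The smallest adjusted p was 0.45 (Ndufa8, edgeR). Before adjustment 2 members, Ndufa8 and Ndufa12, were lower in the knockout with p under 0.05, against a background of 2.87% of tested genes, and 0 were higher, against 3.52%. DESeq2 found the same 2 genes at an unadjusted p under 0.05 and likewise 0 of 46 past the adjusted threshold. The number lower at an unadjusted p under 0.05 depended on single libraries. It was 7 without control replicate 4, the smallest library (Ndufa12, Ndufa4, Ndufa8, Ndufb5, Ndufb8, Ndufs4 and Ndufs6), and 1 (Ndufa8) without control replicate 1, control replicate 3 or knockout replicate 4. Calls over the whole table also rose without control replicate 4. There 43 of 12702 tested genes passed the adjusted threshold, 25 of them lower, against 21 and 6 with all libraries. The share of all tested genes at an unadjusted p under 0.05 is not given for the fits without 1 library.

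The direction was shared by most subunits, with small differences. A log2 fold change below 0 was found for 33 of 38 subunits, where 50.3% of tested genes were below 0, and the subunit median was -0.14 against 0.00 over all tested genes. The subunits ranged from -0.38 (Ndufa8) to 0.30 (Ndufa4l2), and their middle lay between quartiles of -0.20 and -0.08. The standard error of a single subunit was 0.10 to 0.25, with a median of 0.13. Only Ndufa8 and Ndufa12 differed by more than 2 standard errors. For 12 of the 38 subunits all 4 knockout libraries lay below the control mean, where 13.9% of tested genes did so, and for 27 at least 3 did, where 39.3% of tested genes did so. Knockout libraries lay wholly below control libraries for 2 subunits, Ndufa8 and Ndufs8, against 1.73% of tested genes, and wholly above for 0, against 2.48%. In the 8 fits without 1 library, 28 to 34 of the 38 subunits were below 0 and the median was -0.19 to -0.09. The subunits were measured in the same 8 libraries, and control replicate 4 alone was the lowest control for 24 of 38. Counts of subunits are therefore not counts of independent observations, and no test over the list was made.

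**Figure D2:**
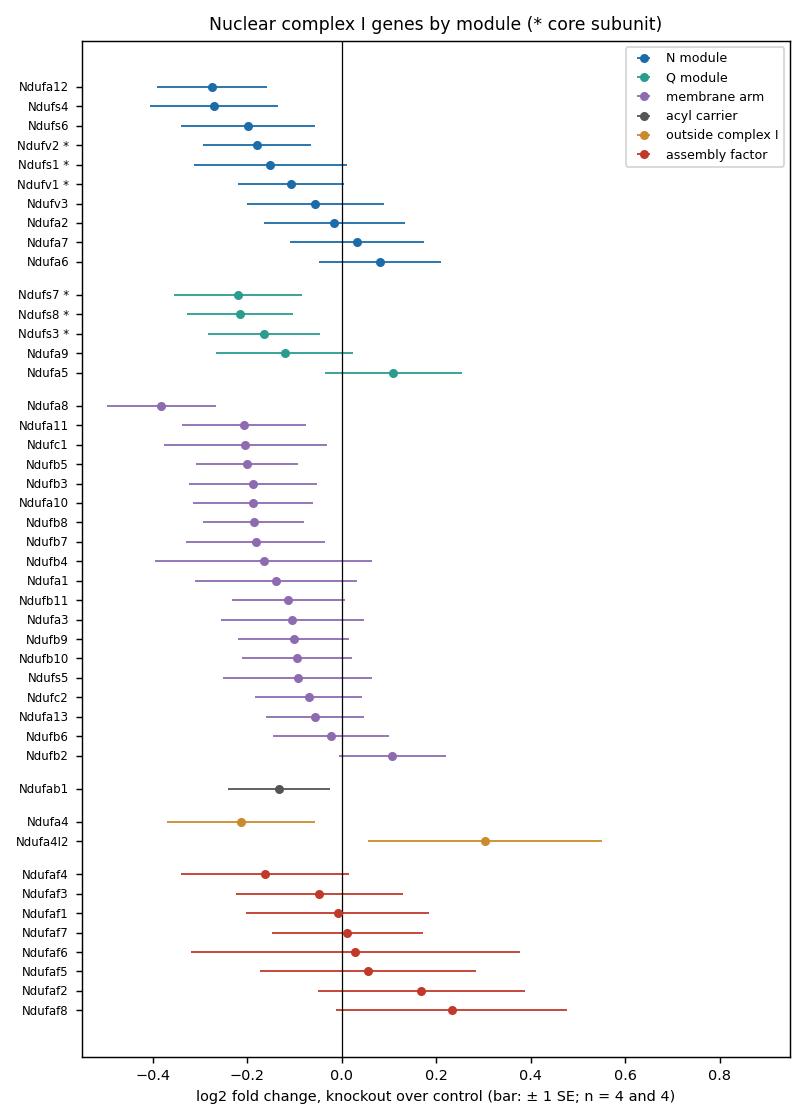
Log2 fold change of knockout over control (x axis) for the complex I genes reported by name or in a range (y axis), grouped and coloured by module, with core subunits starred. Points are edgeR estimates and bars ± 1 standard error from 4 libraries in each group. Most subunits lie left of 0, from Ndufa8 at -0.38, while the 8 assembly factors lie on both sides of it.

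The N module holds the site where NADH gives up its electrons. Of its 10 genes, 8 had a log2 fold change below 0, with a module median of -0.13. Ndufv1, the core subunit that binds NADH and the flavin cofactor, was at 154, 127, 170 and 151 CPM in control replicates 1 to 4 and at 140, 139, 137 and 143 CPM in knockout replicates 1 to 4. Its knockout libraries were close together and all fell inside the control range (log2 fold change -0.11, SE 0.11, edgeR adjusted p = 0.94). Ndufv2, an iron-sulphur core subunit next to it, was at 202, 187, 208 and 182 CPM in the controls and 191, 186, 163 and 150 CPM in the knockouts. The groups overlapped, with knockout replicates 3 and 4 below every control library (log2 fold change -0.18, SE 0.11, edgeR adjusted p = 0.91). Ndufs1, which carries several iron-sulphur clusters, was at 107, 73.6, 81.2 and 101 CPM against 101, 88.8, 62.8 and 74.8 CPM. These values were widely spread in both groups (log2 fold change -0.15, SE 0.16, edgeR adjusted p = 0.94). Leaving out knockout replicate 3 gave -0.04 for Ndufs1, and leaving out knockout replicate 1 gave -0.26.

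Accessory subunits of the N module included the lowest members after Ndufa8. Ndufa12 (chromosome 10, 94198720 to 94221443), a relative of the assembly factor Ndufaf2, was at 138, 110, 128 and 115 CPM in control replicates 1 to 4 and 114, 100, 98.5 and 93.8 CPM in knockout replicates 1 to 4. Only knockout replicate 1 reached into the control range (log2 fold change -0.27, SE 0.12, unadjusted p = 0.033, edgeR adjusted p = 0.72). Ndufa12 shares 20.2% of its transcript words of 31 bases with the pseudogene Gm15920, which averaged 1.82 estimated counts per library. Ndufs4 (chromosome 13, 114287795 to 114388258), whose loss in mice is a model of Leigh syndrome, was at 85.6, 89.1, 109 and 75.01 CPM in the controls and 82.0, 64.5, 71.4 and 80.7 CPM in the knockouts. Its groups overlapped through control replicate 4, the lowest control library (log2 fold change -0.27, SE 0.14, edgeR adjusted p = 0.82). Ndufa6 and Ndufa7 had values of 0.08 and 0.03 on the log2 scale, and Ndufa2, Ndufs6 and Ndufv3 of -0.02, -0.20 and -0.06.

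In the Q module, which passes electrons to ubiquinone, 5 of 6 genes had a log2 fold change below 0 and the median was -0.17. Ndufs8 (chromosome 19, 3908863 to 3912774), an iron-sulphur core subunit, was at 95.7, 88.7, 94.2 and 89.8 CPM in control replicates 1 to 4. In knockout replicates 1 to 4 it was at 85.6, 71.8, 74.9 and 85.3 CPM. Every knockout library was below every control library, by a small margin (log2 fold change -0.21, SE 0.11, edgeR adjusted p = 0.82). Ndufs7, the core subunit that holds the last iron-sulphur cluster before ubiquinone, was at 124, 140, 166 and 149 CPM in the controls and 131, 148, 102 and 117 CPM in the knockouts. Knockout replicates 3 and 4 were below every control library while replicates 1 and 2 were not (log2 fold change -0.22, SE 0.14, edgeR adjusted p = 0.89).

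For Ndufs3, a core subunit at the base of the matrix arm, the values were 190, 157, 174 and 143 CPM against 151, 157, 154 and 133 CPM. Its groups overlapped, with control replicate 4 the lowest control library (log2 fold change -0.16, SE 0.12, edgeR adjusted p = 0.91). Ndufa5, an accessory subunit of the matrix arm, ran the other way, at 56.6, 55.7, 79.8 and 55.1 CPM in the controls and 67.3, 70.2, 71.8 and 58.0 CPM in the knockouts (log2 fold change 0.11, SE 0.15, edgeR adjusted p = 0.95). Its knockout libraries lay between control replicate 3 and the other control libraries. Ndufa9 had a log2 fold change of -0.12. The 29 accessory subunits of all modules had a median of -0.12, with 25 below 0.

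Of the 19 membrane arm genes, 18 had a log2 fold change below 0 and the median was -0.14. Ndufa8 (chromosome 2, 36036326 to 36049406), an accessory subunit on the face toward the intermembrane space, whose promoter is printed above, was at 143, 120, 127 and 149 CPM in control replicates 1 to 4. It was at 101, 94.4, 103 and 114 CPM in knockout replicates 1 to 4. All knockout libraries were below all control libraries, with means of 135 ± 13.2 and 103 ± 8.37 CPM (SD, n = 4). Its log2 fold change was -0.38 with an SE of 0.11 (edgeR adjusted p = 0.45). The unadjusted p of Ndufa8 was 0.0049, and it stayed under 0.05 in each of the 8 fits without 1 library, with log2 fold changes of -0.44 to -0.33. Ndufa8 shares no word of 31 bases with another gene of the table.

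Ndufb2, at the far end of the membrane arm, was the member of the arm with a value above 0. It was at 84.6, 89.1, 83.9 and 95.5 CPM in the controls and 107, 92.0, 93.9 and 87.2 CPM in the knockouts, with overlap between the groups (log2 fold change 0.11, SE 0.11, edgeR adjusted p = 0.94). The other 17 genes of the arm lay between -0.21 (Ndufa11) and -0.02 (Ndufb6). Ndufab1, the mitochondrial acyl carrier protein, which also serves fatty acid synthesis in the mitochondrion, was at 338, 310.1, 288 and 296 CPM against 293, 255, 272 and 305 CPM. Knockout replicates 2 and 3 were below every control library and replicates 1 and 4 were not (log2 fold change -0.13, SE 0.11, edgeR adjusted p = 0.92).

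Ndufa4 and Ndufa4l2 carry the family name but stand apart. Ndufa4 (chromosome 6, 11900292 to 11907497) is now counted as a subunit of complex IV, and Ndufa4l2 (chromosome 10, 127514967 to 127517154) is its hypoxia-inducible relative. Ndufa4 was at 359, 267, 377 and 230 CPM in control replicates 1 to 4 and 283, 220, 282 and 280.1 CPM in knockout replicates 1 to 4. The control libraries formed a wide range that enclosed all knockout libraries but replicate 2 (log2 fold change -0.21, SE 0.16, edgeR adjusted p = 0.91). Ndufa4l2, with 15.4 CPM the least counted subunit, was at 15.4, 15.9, 10.3 and 13.5 CPM in the controls and 11.9, 16.1, 20.6 and 19.3 CPM in the knockouts. Its value was the highest of the 46 genes and within the spread of the libraries (log2 fold change 0.30, SE 0.25, edgeR adjusted p = 0.92). Without these 2 genes the subunit median was -0.14, with 32 of 36 below 0.

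**Figure D3:**
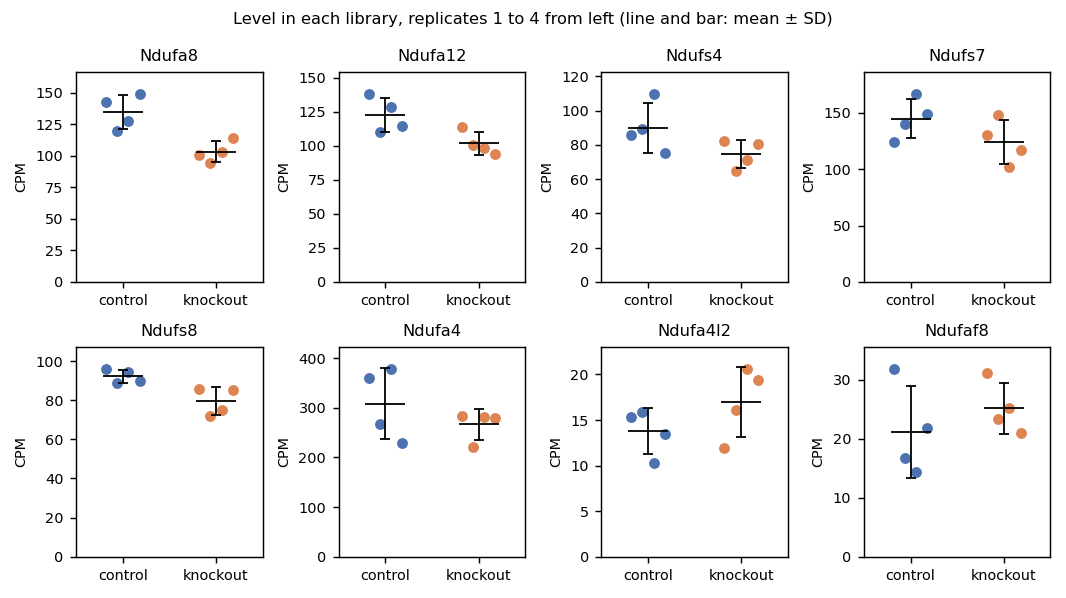
CPM (y axis, from 0) of 8 complex I genes in each control and knockout library, with replicates 1 to 4 from left to right as points and the mean ± SD as line and bar (n = 4). Ndufa8 and Ndufs8 show no overlap between the genotypes, while the other 6 genes do.

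Of the 8 assembly factors, 3 had a log2 fold change below 0 and 5 above, and the median was 0.02. An unadjusted edgeR p under 0.05 was reached by 0 of the 8, against 2.87% of tested genes lower and 3.52% higher. These counts rested on single libraries: 6 of 8 were below 0 without control replicate 2, with a median of -0.019, and 1 of 8 without control replicate 4, with a median of 0.06. Whether assembly factors and subunits differ in direction was not tested. Ndufaf4 and Ndufaf3, which act together in the first steps of Q module assembly, were the lowest. Ndufaf4 was at 29.0, 25.9, 23.3 and 34.0 CPM in the controls and 22.4, 27.4, 22.1 and 27.5 CPM in the knockouts (log2 fold change -0.16, SE 0.18, edgeR adjusted p = 0.94). For Ndufaf3 the values were 31.1, 26.4, 30.1 and 34.6 CPM against 29.3, 35.9, 30.3 and 22.6 CPM (log2 fold change -0.05, SE 0.18, edgeR adjusted p = 0.99). Both groups of libraries overlapped widely in these 2 genes.

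At the other end, Ndufaf8, a partner of Ndufaf5, was at 31.8, 16.7, 14.4 and 21.8 CPM in the controls and 31.1, 23.4, 25.2 and 21.0 CPM in the knockouts (log2 fold change 0.23, SE 0.24, edgeR adjusted p = 0.94). Control replicate 1 was the highest library of all, and without it Ndufaf8 was higher in the knockout at an unadjusted p under 0.05, with a log2 fold change of 0.52 and an adjusted p of 0.81. The same value was 0.09 without control replicate 3, 0.12 without knockout replicate 1 and 0.13 without control replicate 2. Ndufaf2, the relative of Ndufa12 that holds its place during assembly, was at 30.0, 29.7, 25.1 and 39.1 CPM against 44.9, 23.8, 42.7 and 27.5 CPM, with knockout libraries both above and below the control range (log2 fold change 0.17, SE 0.22, edgeR adjusted p = 0.95). The value for Ndufaf2 was 0.03 without knockout replicate 1, 0.05 without knockout replicate 3 and 0.31 without knockout replicate 2. Ndufaf1, Ndufaf5, Ndufaf6 and Ndufaf7 lay between -0.01 and 0.06.

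Subunits and assembly factors differed in level and in precision. The mean over all 8 libraries was 15.4 to 360.3 CPM for subunits, with a median of 122 CPM, and 7.19 to 35.6 CPM for assembly factors, with a median of 24.8 CPM. Libraries were read from the 3′ end, where counts need not grow with transcript length. Per kilobase of the longest annotated transcript the medians were 107 and 13.4 CPM per kilobase. The median standard error of the log2 fold change was 0.13 for subunits and 0.21 for assembly factors, so a difference of the subunits' size would have been less visible in the assembly factors.

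Summed over genes, the 38 subunits reached 5814, 5161, 5824 and 4881 CPM in control replicates 1 to 4 and 5238, 4677, 4968 and 4942 CPM in knockout replicates 1 to 4. The difference between the mean sums was -8.55% of the control mean, and the groups overlapped, with control replicates 2 and 4 within the knockout range. The 8 assembly factors summed to 194, 170, 174 and 215 CPM in the controls and 207, 178, 198 and 185 CPM in the knockouts. Here control replicate 4 was the highest library. The ratio of the 2 sums was 29.2 ± 4.58 in the controls and 25.8 ± 0.76 in the knockout libraries (SD, n = 4), with control replicate 4, at 22.7, below every knockout library and the other controls above them. That library gave the lowest control value for 24 of the 38 subunits, and knockout replicate 2 gave the lowest knockout value for 17. Without control replicate 4 the subunit median was -0.19, and without knockout replicate 2 it was -0.11.

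**Figure D4:**
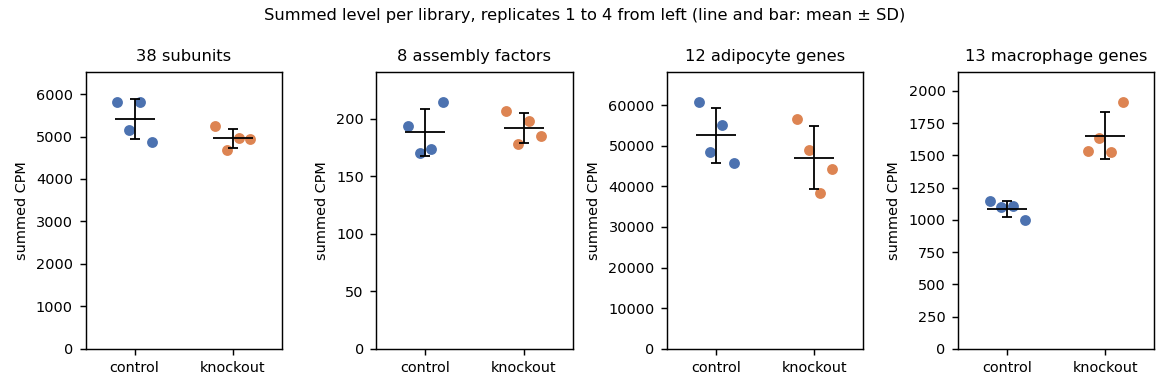
Summed CPM (y axis, from 0) of the 38 subunits, the 8 assembly factors, 12 adipocyte markers and 13 macrophage markers in each control and knockout library, with replicates 1 to 4 from left to right as points and the mean ± SD as line and bar (n = 4). Subunit, assembly factor and adipocyte sums overlap between genotypes, and macrophage sums do not.

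Other genes of complex I were listed for comparison. Of the 7 subunits encoded in mitochondrial DNA, 6 had a log2 fold change below 0, with a median of -0.24, and 0 passed the adjusted threshold. Before adjustment 3 of the 7 were lower with an edgeR p under 0.05, against 2.87% of tested genes, and 0 were higher, against 3.52%. The lowest was mt-Nd1, a core subunit at the joint of the arms, at 9388, 9440, 10941 and 10431 CPM in the controls and 8081, 7502, 7553 and 7577 CPM in the knockouts. All knockout libraries were below all control libraries for mt-Nd1 (log2 fold change -0.39, SE 0.11, edgeR adjusted p = 0.40), and likewise for mt-Nd2 (-0.31, adjusted p = 0.69). That held for 2 of the 7 subunits, against 1.73% of tested genes. Of 13 assembly genes without the Nduf name, 12 were in the table and tested. Of these 8 were below 0, where 50.3% of tested genes were, and the median was -0.06. At an unadjusted edgeR p under 0.05, 0 were higher, against 3.52% of tested genes, and 1 was lower, against 2.87%. It was Aifm1, which takes part in the import of respiratory chain proteins, at 40.6 ± 8.64 against 28.3 ± 4.68 CPM (SD, n = 4), a log2 fold change of -0.51 (edgeR adjusted p = 0.67). For 11 regulators of nuclear respiratory genes, among them Nrf1, Yy1 and the coactivator Ppargc1a, 7 were below 0 and the median was -0.06. An unadjusted edgeR p under 0.05 was reached by 0 of the 11, against 2.87% of tested genes lower and 3.52% higher.

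Nuclear genes of the other respiratory complexes gave values of similar size. Of 48 genes of complexes II to V, 42 were tested, 40 were below 0, and the median was -0.16, beside -0.14 for complex I subunits. By complex the median was -0.12 for II, -0.23 for III, -0.07 for IV and -0.19 for V, with 0 genes past the adjusted threshold. Of the 42 tested, 5 were lower with an unadjusted edgeR p under 0.05, against 2.87% of tested genes, and 0 were higher, against 3.52%. Knockout libraries lay wholly below control libraries for 4 of the 42, against 1.73% of tested genes, and wholly above for 0, against 2.48%. No test of complex I against these complexes was made.

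**Figure D5:**
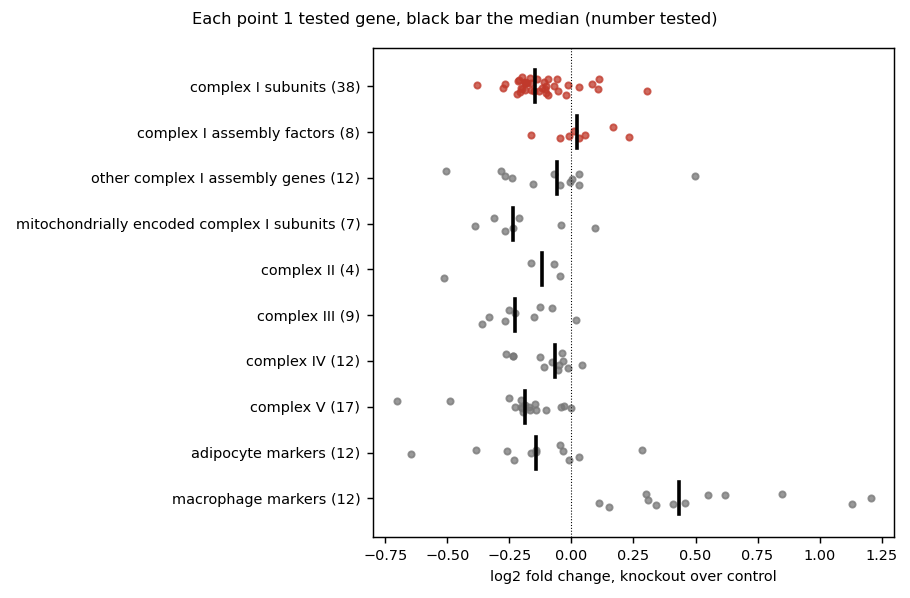
Log2 fold change of knockout over control (x axis) for each tested gene of 10 lists (y axis, number tested in brackets), with a black bar at the median of the list. The Nduf subunits and assembly factors are red. The other lists are grey, including the mitochondrially encoded subunits and the other assembly genes of complex I. The subunit bar is at -0.14, the assembly factor bar at 0.02 and the macrophage bar at 0.43.

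Reads of some members can be shared with copies elsewhere in the genome, and how the counts were divided among them is not given in the sources used here. Of the 46 genes, 12 share no word of 31 bases with another gene of the table, and 8 share more than 10% of their words with a single other gene. The subunit Ndufb4 is the clearest case. Ndufb4 averaged 24.4 ± 7.57 CPM in controls and 21.9 ± 3.72 CPM in knockouts, and Ndufb4c, annotated as a processed pseudogene that holds 19.1% of its words, was at 81.5 ± 17.9 and 93.8 ± 18.9 CPM (SD, n = 4). The pair had log2 fold changes of -0.16 and 0.20, each within about 1 standard error of 0 (SE 0.23 and 0.18). Whether another division of reads between the pair would change the value for Ndufb4 was not tested. Ndufs5, at 103 ± 19.1 and 96.9 ± 17.6 CPM, shares 26.5% of its words with the pseudogene BC002163, at 29.2 ± 2.21 and 35.5 ± 5.90 CPM (SD, n = 4). Leaving out the 8 subunits of this kind, a choice made after seeing the data, gave a subunit median of -0.14 with 25 of 30 below 0. No member has a run of more than 20 A in an annotated transcript, and 15 overlap a gene on the opposite strand.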

How the data were processed

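Libraries from epididymal adipose tissue (8 in all) were made by BRB-seq, a 3′-end method primed with oligo-dT, and read over 51 bases, per the labels' protocols. The authors deposited estimated counts per gene without normalization; Salmon and GRCm38 are named in the submitters' processing notes, with no version or role. Identifiers were matched without version to GENCODE M21 (34652 of 34866), which gave symbols, coordinates and words of 31 bases. Counts were rounded, since the design had assumed whole counts, filtered with filterByExpr (12480 genes) and tested with edgeR 4.0.16 in R 4.3.3 (TMM factors, robust quasi-likelihood F test, genotype as the only term, Benjamini-Hochberg adjustment, threshold 0.05). Alternatives were RLE factors, no filter, DESeq2 1.42.0, a replicate block and leaving out each library. Named genes were members with an unadjusted p under 0.05, the 4 lowest and 3 highest subunits, the 2 lowest and 2 highest assembly factors, the 7 nuclear core subunits (1 is not reported here by itself), Ndufa4, Ndufa4l2 and Ndufab1. Members and lists were chosen with earlier results of these data known.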

Additional observations from a re-analysis of the deposited data

Results flagged for a closer look

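Of 48 groups of 4 values examined (19 named genes and 5 sums, in each genotype), 2 held a library whose gap to its nearest neighbour was above Dixon's 95% critical share of the range, where chance gives 2.4. Ndufa4 was at 220.3 CPM in knockout replicate 2, against 280.1 to 283 CPM in the other knockout libraries. Its log2 fold change was -0.13 without that library, -0.10 without control replicate 3 and -0.33 without control replicate 4, against -0.21 with all libraries. Control replicate 3 held 79.8 CPM of Ndufa5, where the other controls held 55.1 to 56.6 CPM, and its log2 fold change was 0.26 without it, against 0.11 with all libraries and 0.06 without control replicate 2.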

How the results depend on the processing

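No complex I gene passed the adjusted threshold under any setting run, and all 46 were tested under each. Among all tested genes 21 passed, against 58 with no low-count filter, 55 with DESeq2, 6 with the replicate block and 4 to 43 without 1 library (4 without control replicate 2, 43 without control replicate 4). The cause was not tested. Complex I genes lower at an unadjusted p under 0.05 numbered 1 to 7 without 1 library and 2 under every other setting, and those higher 0 to 1. The subunit median ranged from -0.19 to -0.093 without 1 library. The assembly factor median ranged from -0.019 to 0.085 and turned below 0 without control replicate 1 (-0.0022) or control replicate 2 (-0.019). Of the 19 named genes, Ndufaf3 alone turned, to 0.01 without control replicate 4 and 0.066 without knockout replicate 4, within a range of -0.16 to 0.066. Single libraries also moved named values by over 1.5 times without turning them: Ndufv1 ranged from -0.18 to -0.04, Ndufs3 from -0.23 to -0.09, Ndufs4 from -0.34 to -0.16, Ndufs7 from -0.31 to -0.13, Ndufv2 from -0.23 to -0.12, Ndufab1 from -0.17 to -0.08, Ndufb2 from 0.05 to 0.15, Ndufa4l2 from 0.19 to 0.44 and Ndufaf4 from -0.24 to -0.07. Deviations of same-numbered libraries correlated at 0.25, -0.062, -0.0058 and -0.24, and control replicate 1 alone correlated best with its own number. With so few libraries these values cannot tell whether same-numbered libraries were paired or shared a batch. The added choices of subunits changed no direction. Fewer counts limit the assembly factors, down to 11 in 1 library.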
